A study of Homo sapiens with 4 samples.

Results

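This section describes 6 microRNA (miRNA) assays, of 377 human miRNA assays on the card, for miRNAs known to act on the cells of blood vessels: hsa-miR-126, hsa-miR-132, both arms of miR-139 (hsa-miR-139-5p and hsa-miR-139-3p) and both arms of miR-296 (hsa-miR-296-5p and hsa-miR-296-3p). They were chosen by name, for that known action and not for any measured value, though with earlier results of these data known. Passenger strands marked with an asterisk or hash were left out. The measurements were made in RPMI8226, an established human multiple myeloma line, that is, a malignant plasma cell line. The labels name no genetic change and no drug in any group. There were 4 samples, 1 per group: cells kept for 24 h at 20% oxygen (normoxia), cells kept for 24 h at 1% oxygen (hypoxia), and the exosome fraction of the medium at each oxygen level. Exosomes are small vesicles that cells shed. The fraction was precipitated from cleared and filtered medium with a polymer reagent, which enriches vesicles without separating them from other carriers of RNA. Vessel cells are named here for the known action of these miRNAs, and the origin of the RNA in the fraction was not tested.

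Endothelial cells line the vessels and form new ones when vascular endothelial growth factor (VEGF) binds its receptor, a process that low oxygen stimulates and that accompanies the growth of myeloma in bone marrow. A miRNA acts by pairing its seed, bases 2 to 8 from the 5′ end, with messenger RNAs, which are then repressed. miR-126, which is abundant in endothelium and in some blood lineages, represses SPRED1 and PIK3R2, both of which dampen VEGF signalling. miR-132 represses RASA1, a brake on RAS, in endothelium that is being activated. miR-296-5p represses HGS, which sends growth factor receptors to degradation, while miR-139-5p, mostly known as a tumour suppressor, represses ROCK2 and CXCR4, which act in cell migration.

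The mature sequences are printed because the members differ in their seeds, and so in what they can pair with. They are from RefSeq (GRCh38.p14), where all 6 names were found, with unsuffixed assay names taken as the 3p arm. Capitals mark the seed, and miR-212, the cluster partner of miR-132, is added for comparison.
miR-126: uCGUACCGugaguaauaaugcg
miR-132: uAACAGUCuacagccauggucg
miR-139-5p: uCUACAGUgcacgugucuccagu
miR-139-3p: uGGAGACGcggcccuguuggagu
miR-296-5p: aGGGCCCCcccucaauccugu
miR-296-3p: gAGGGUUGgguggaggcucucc
miR-212: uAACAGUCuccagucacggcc
No seed was shared between members. miR-132 shared its seed with miR-212 and with no other mature miRNA in the RefSeq table, and both begin with the same 9 bases. The other 5 members had no seed partner in that table. The share of G and C was lowest in miR-126, at 45.5%, and reached 66.7% in miR-296-5p and 68.2% in miR-296-3p.

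The arms of miR-139 and of miR-296 each come from 1 precursor hairpin and are cut from the same transcript. The hairpins are printed with both mature arms in capitals, the 5p arm first.
MIR139: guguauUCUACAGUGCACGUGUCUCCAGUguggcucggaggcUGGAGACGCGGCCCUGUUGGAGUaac
MIR296: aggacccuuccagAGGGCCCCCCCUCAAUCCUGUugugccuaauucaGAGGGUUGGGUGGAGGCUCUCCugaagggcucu
In the RefSeq gene table MIR126 lies within EGFL7 on chromosome 9, a gene expressed by endothelium, and MIR139 within PDE2A on chromosome 11, which encodes a phosphodiesterase. MIR132 neighbours MIR212 on chromosome 17, and MIR296 neighbours MIR298 and GNAS-AS1 on chromosome 20. miR-212 and miR-298 have assays on the card too.

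The value per assay and sample is the threshold cycle (Ct) of 1 well, the cycle of the PCR when the fluorescence signal first exceeds a set level. A Ct lower by 1 cycle stands for 2 times the template at full efficiency, and a Ct of 35, the highest in the table, was read as not detected. Between 155 and 162 of the 377 assays were detected in cells and between 219 and 221 in the exosome fraction. Only the exosome products were pre-amplified. Of the normalizers, U6 stood at Ct 18.82 ± 0.15 in normoxia and 18.81 ± 0.12 in hypoxia (SD over n = 4 wells, each of 1 cell sample), and the plant spike-in ath-miR159 at 22.94 and 22.99 in the exosome fraction. As each group is 1 sample, no difference between groups has a replicate error, no test was made and no p-value is given. The spread of the U6 wells is the only repeat measurement, and it covers an abundant RNA within 1 card. Lymphoid markers (miR-142-3p, miR-142-5p, miR-150, miR-155 and miR-146a) were detected in all 4 samples. In normoxic and hypoxic cells miR-142-3p, a blood cell miRNA, stood at Ct 24.95 and 24.97 and miR-146a at 25.95 and 25.71. The others were later, with miR-150 at 29.82 and 28.96, miR-155 at 31.67 and 30.97 and miR-142-5p at 31.79 and 31.97. Of 4 platelet and red cell assays only miR-223 was detected in cells (Ct 31.71 and 31.94), and of 4 fibroblast and smooth muscle assays only miR-199a-3p (Ct 32.50 and 32.97). In the exosome fraction miR-199a-3p stood at Ct 25.94 in both samples and miR-143 at 34.01 in hypoxia alone, while miR-145 and miR-214 were at the ceiling in all 4 samples. Of 3 muscle assays 0 were detected in normoxic cells and 1 in hypoxic cells (miR-133a, Ct 32.96). The normoxic fraction had 3 of them and the hypoxic one 2, led by miR-133a at Ct 27.94 and 28.07. The liver assay miR-122 was at the ceiling in all 4 samples. Of 6 epithelial assays 5 were detected in each sample, but not the same 5, led in cells by miR-200b at Ct 28.96 and 28.64. miR-200c was detected in cells alone (Ct 32.82 and 32.99) and miR-141 in the exosome fraction alone (Ct 30.98 and 30.12).

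Many Ct values lay just below a whole cycle, which bears on how finely the members can be compared. Of 757 detected miRNA wells, 480 (63.4%) were within 0.1 of a whole cycle, where an even spread would give 20.0%, and the shares ran from 53.7% in normoxic cells to 71.6% in hypoxic cells. Of the members' 18 detected wells, 12 were within 0.1 of a whole cycle, among them all 4 detected in hypoxic cells and 1 of 4 in normoxic cells. Some differences of about 0.3 cycles between oxygen levels lay between a Ct next to a whole cycle and one further from it. What part the whole-cycle values have in such differences was not tested. The settings behind these values were not stated in the labels.

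**Figure D1:**
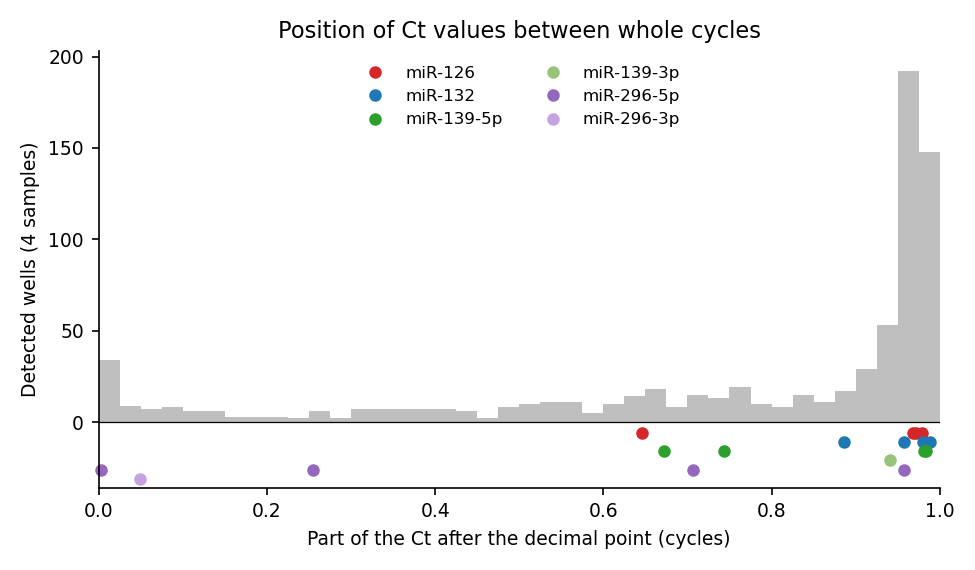
Part of the Ct after the decimal point (x axis, cycles) for the 757 detected wells of all 377 miRNA assays in 4 samples, as grey bars counting wells (y axis), with the members' 18 detected wells as coloured points below the bars. Most wells, and 12 of the 18 member wells, lie within 0.1 of a whole cycle.

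In cells, 4 of the 6 assays were detected, and miR-126 was by far the most abundant by Ct. miR-126 stood at Ct 25.98 in normoxic and 25.97 in hypoxic cells, which was rank 19 of 162 and rank 19 of 155 detected assays. miR-132 stood at 30.89 and 30.98, close to the middle of the detected assays (ranks 73 and 75). miR-139-5p stood at 31.67 and 31.98 (ranks 90 and 104), and miR-296-5p at 32.25 and 31.96 (ranks 103 and 92). The level of miR-126 was thus between 4.91 and 6.28 cycles ahead of the other detected members. The 3p arms, miR-139-3p and miR-296-3p, were at the ceiling in both cell samples. A Ct compares different assays only roughly, because each has primers of its own. The order miR-126, then miR-132, was the same in both cell samples. miR-139-5p and miR-296-5p changed places, and in hypoxic cells they were 0.03 cycles apart, less than the spread of the U6 wells.

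In the exosome fraction all 6 assays were seen in at least 1 sample, and 4 in both. miR-126 again had the lowest Ct, at 21.65 in normoxia and 21.97 in hypoxia (ranks 31 of 221 and 35 of 219). miR-296-5p stood at 23.71 and 24.00 (ranks 62 and 74), miR-132 at 23.96 and 23.99 (ranks 69 and 72) and miR-139-5p at 24.98 and 24.74 (ranks 83 and 80). The lead of miR-126 over these was between 2.02 and 3.34 cycles. miR-296-5p and miR-132 were 0.25 cycles apart in normoxia and 0.015 cycles apart in hypoxia, where their order cannot be told. miR-139-3p was seen in hypoxia alone, at Ct 27.94, and miR-296-3p in normoxia alone, at Ct 31.05.

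**Figure D2:**
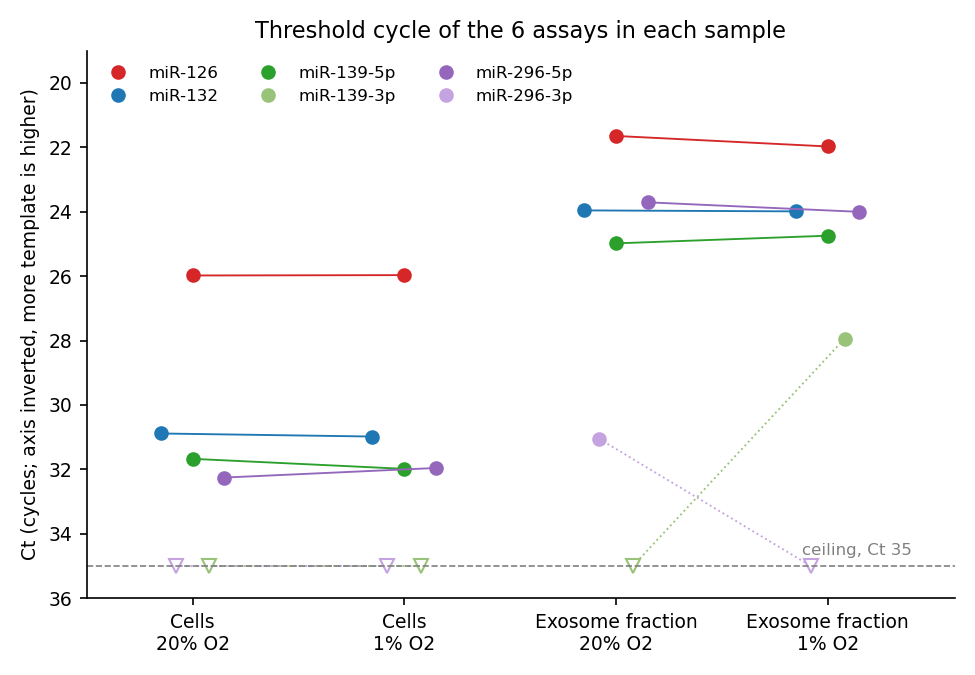
Ct of the 6 assays (y axis, cycles, inverted) in each of the 4 samples (x axis), with 1 well per point, shifted sideways for legibility. Open triangles at Ct 35 are wells at the ceiling, and dotted lines join a detected well to one at the ceiling. miR-126 is highest in every sample, and the 3p arms leave the ceiling in 1 exosome sample each.

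The first comparison, hypoxia against normoxia in cells, asks whether these miRNAs differ in the producing cells at low oxygen. Changes are given on the log2 scale as hypoxia over normoxia after normalization to U6. None of the 4 measured members reached 2-fold. Over all 147 assays detected in both cell samples, 20 (13.6%) were past 2-fold, 11 higher and 9 lower (6 and 10 with RNU44 and RNU48 as normalizers). The log2 change was 0.01 for miR-126, -0.10 for miR-132, -0.32 for miR-139-5p and 0.29 for miR-296-5p. The median of the 4 was -0.05, beside 0.03 over all assays. miR-126 and miR-132 moved by less than the SD of the U6 wells (0.15), and miR-139-5p and miR-296-5p by about 0.3 in opposite directions, each between a Ct away from a whole cycle in normoxia and one within 0.1 of it in hypoxia. For scale, miR-210, the best known target of hypoxia-inducible factor among miRNAs, changed by 3.55 in the same cells.

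The second comparison, hypoxia against normoxia in the exosome fraction, asks whether the load of these miRNAs in the medium differs. Again none of the 4 members measured in both samples reached 2-fold, where 15 of 203 assays (7.39%) did over the whole card. After normalization to the spike-in the log2 change was -0.27 for miR-126, 0.02 for miR-132, 0.29 for miR-139-5p and -0.24 for miR-296-5p. Their median was -0.11, beside -0.07 over all assays. miR-210, past 2-fold in cells, changed by 0.39 in this fraction, which is also within 2-fold. The authors' deposited table gives the same ratios, 0.828 for miR-126, 1.02 for miR-132, 1.22 for miR-139-5p and 0.845 for miR-296-5p. Each sample's median Ct in place of the spike-in shifts every assay by 0.20, which leaves miR-126 at -0.07 and miR-296-5p at -0.04. Platelets also carry miR-126. Of the 4 platelet and red cell assays, miR-223 was detected in both exosome samples (Ct 25.55 and 25.95) and miR-451 in the normoxic one alone (Ct 33.19), while both miR-486 arms stood at the ceiling in all 4 samples. The summed level of that list relative to the spike-in was -2.61 in normoxia and -2.96 in hypoxia on the log2 scale, and its part in the value of miR-126 was not tested.

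**Figure D3:**
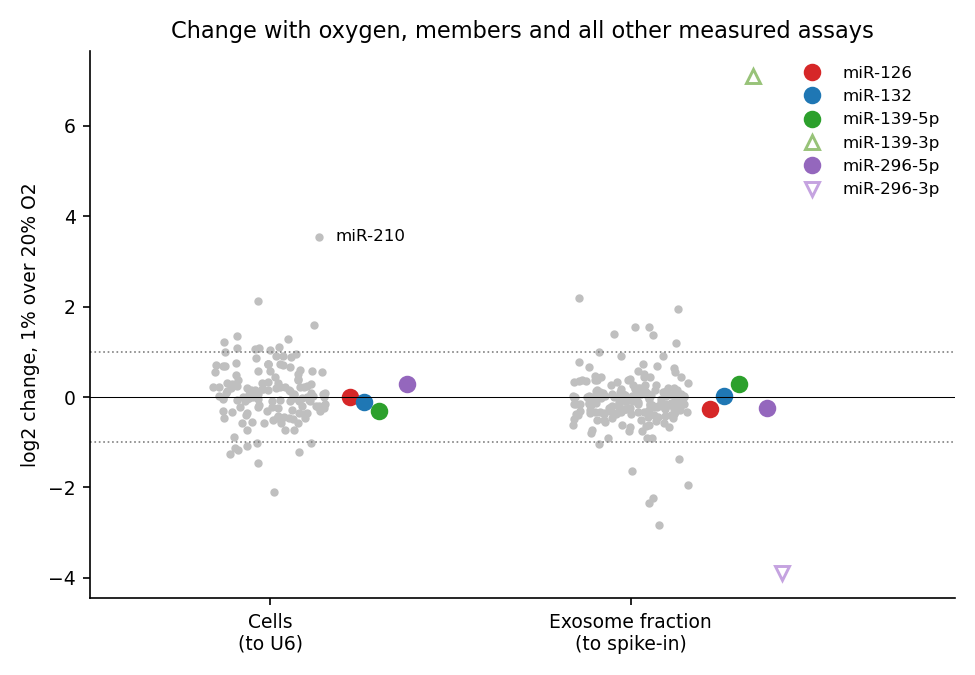
log2 change of 1% over 20% oxygen (y axis) in cells (normalized to U6) and in the exosome fraction (normalized to the spike-in), with 1 grey point per other assay detected in both samples and coloured points for the members. Open triangles are bounds for miR-139-3p and miR-296-3p, and dotted lines mark 2-fold. The measured members lie between -0.32 and 0.29 in both compartments.

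Both 3p arms differed between the exosome samples by crossing the ceiling. miR-139-3p was at the ceiling in the normoxic fraction and at Ct 27.94 in the hypoxic one. At full efficiency it was therefore at least 138-fold higher in hypoxia, computed against Ct 35. miR-296-3p was at Ct 31.05 in the normoxic fraction and at the ceiling in the hypoxic one. On the same terms it was at least 14.9-fold lower in hypoxia. The authors' deposited table lists these as the ratios 138 and 0.0671, as if 35 had been measured. At an efficiency of 1.9 per cycle the log2 bounds would be 6.59 and -3.61, in place of 7.11 and -3.90. Each bound rests on 1 well per sample, and whether the well at the ceiling had worked was not tested.

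Such one-sided detection was not particular to these arms. Of 237 assays seen in either exosome sample, 34 (14.3%) were seen in 1 of them, 16 in hypoxia (6.75%) and 18 in normoxia (7.59%), most of them late: the median Ct of the seen well was 32.96 for the former and 33.09 for the latter. miR-139-3p had the second lowest Ct of the 16, after miR-520e at 18.98 and just before miR-215 at 28.07, both named after their values were seen. These were the 3 assays, of 164 with a Ct under 30 in the hypoxic fraction (1.83%), that stood at the ceiling in the normoxic one. In the other direction there were 0 of 159 assays. By the same calculation miR-520e had a bound of 68809-fold, though it was detected in both cell samples (Ct 25.81 and 27.01). Early wells were lost in cells too: miR-493 stood at Ct 20.94 in normoxia and at the ceiling in hypoxia. miR-296-3p had the third lowest Ct of its 18, and at its level, Ct 30 to 32 in the normoxic fraction, 4 of 26 assays (15.4%) stood at the ceiling in the hypoxic one. The 3 of 164 and the 4 of 26 assays include the member itself. In the narrower range of Ct 26 to 28 in the hypoxic fraction, miR-139-3p was the 1 assay of 31 (3.23%) at the ceiling in the normoxic one. What lies behind either crossing was not tested, and each rests on 1 well per sample.

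The partner arms did not follow. miR-139-5p, from the same hairpin as miR-139-3p, was 1.22-fold in hypoxia over normoxia, and miR-296-5p was 1.18-fold lower in hypoxia. The cycles between the arms do not depend on a normalizer. miR-139-3p came at least 10.02 cycles after miR-139-5p in the normoxic fraction and 3.20 cycles after it in the hypoxic one. miR-296-3p came 7.34 cycles after miR-296-5p in the normoxic fraction and at least 11.00 cycles after it in the hypoxic one. In cells the ceiling left only 3.33 and 3.02 cycles after miR-139-5p and 2.75 and 3.04 cycles after miR-296-5p. At that depth a miR-296-3p as far behind its partner as in the normoxic fraction could not have been seen in cells. A miR-139-3p as far behind as in the hypoxic fraction would have stood 0.13 cycles before the ceiling in normoxic cells and 0.18 cycles past it in hypoxic cells.

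**Figure D4:**
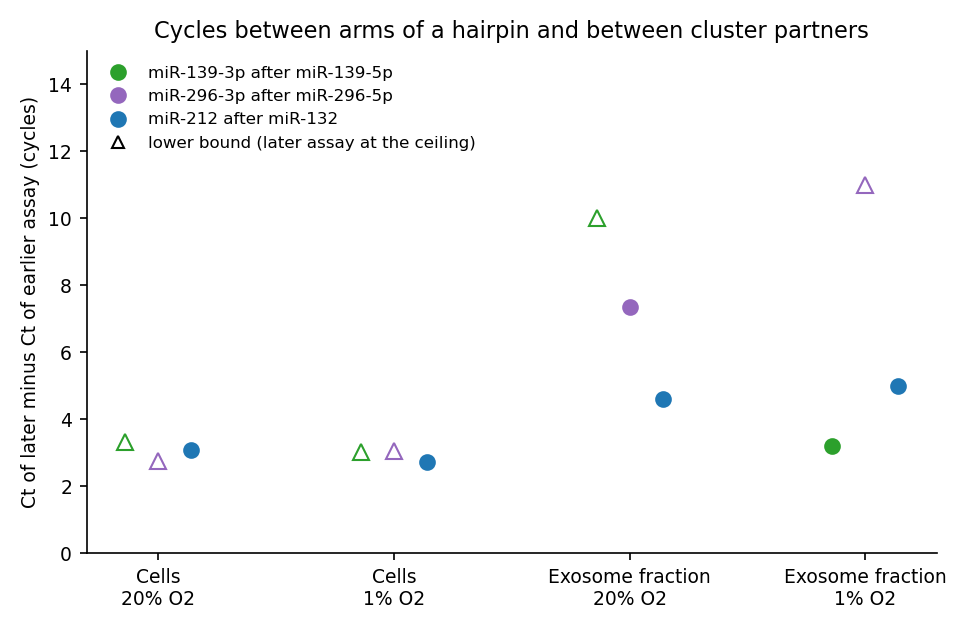
Cycles by which the later assay of a pair follows the earlier one (y axis) in each sample (x axis), for the arms of miR-139, the arms of miR-296, and miR-212 after miR-132. Filled points are measured and open triangles are lower bounds because the later assay was at the ceiling. The gap of the miR-139 arms is at least 10.02 cycles in the normoxic fraction and 3.20 in the hypoxic one.

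The third comparison asked whether the oxygen responses differed between the compartments, over the 138 assays detected in all 4 samples. None of the 4 members differed by 2-fold between the compartments, where 22 of the 138 (15.9%) did. The response in the exosome fraction minus that in cells was -0.28 for miR-126, 0.12 for miR-132, 0.61 for miR-139-5p and -0.53 for miR-296-5p. As normalized here all 4 had opposite signs in the compartments, as had 72 of the 138 assays (52.2%). For miR-126 and miR-132 the sign rests on the normalizer: miR-126 in cells was -0.14 with RNU44 and RNU48 and -0.021 and -0.027 without 1 of the U6 wells, and miR-132 in the exosome fraction was -0.030 with no normalizer. miR-139-5p and miR-296-5p moved in opposite directions. Relative to miR-139-5p, miR-296-5p changed by 0.61 in cells and by -0.53 in the exosome fraction, values that no normalizer enters. Both values are below 2-fold. In both compartments each of these assays moved between a Ct within 0.1 of a whole cycle and one further from it. Other pairs turned too: relative to miR-126, miR-139-5p changed by -0.32 in cells and by 0.56 in the exosome fraction. miR-296-5p relative to miR-126 kept its sign (0.29 and 0.03).

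The fourth comparison set the exosome fraction against the cells at each oxygen level. Each Ct was taken relative to its sample's median over the 138 assays, because pre-amplification lowers Ct values and only the exosome samples had it. The scaling takes that shift as equal for all assays, which was not tested. Some assays seen in both cell samples were at the ceiling in both exosome samples, such as let-7a (Ct 30.76 and 30.97 in cells) and miR-103 (29.06 and 28.99). U6, RNU44 and RNU48 were at the ceiling there too. Compartment and pre-amplification cannot be told apart, since no cell product was pre-amplified. miR-126 had a lower relative level in the exosome fraction, by 6.13-fold in normoxia and 7.94-fold in hypoxia (log2 -2.62 and -2.99), rank 119 and 120 of 138 from the highest. It was among 23 assays (16.7%) at least 4-fold lower at both oxygen levels, where 4 (2.9%) were at least 4-fold higher. With each sample's mean in place of the median, which shifts every assay by 0.66 in normoxia and 0.93 in hypoxia, the counts were 16 lower and 9 higher and miR-126 was at -1.96 and -2.06, below 4-fold in normoxia. With the median over the 58 assays under Ct 30 in all samples it was at -1.78 and -1.85, and the counts were 11 lower and 13 higher.

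miR-296-5p was on the other side, 3.03-fold higher in the exosome fraction in normoxia and 1.96-fold higher in hypoxia (log2 1.60 and 0.97), ranks 11 and 18 of 138. With the mean as scaling it was at 2.25 and 1.903, and with the median over assays under Ct 30 at 2.43 and 2.11, past 4-fold at both oxygen levels. miR-132 sat at the middle, at -0.02 and 0.01, and miR-139-5p at -0.26 and 0.26. With the mean these became 0.64 and 0.94 for miR-132 and 0.40 and 1.19 for miR-139-5p, so their direction between compartments is not settled. The cycles between members are free of the scaling, though not of an effect of pre-amplification that differs between assays. miR-132 followed miR-126 by 4.91 and 5.01 cycles in cells and by 2.31 and 2.02 in the exosome fraction, and miR-296-5p followed miR-126 by 6.28 and 5.99 cycles in cells and by 2.06 and 2.03 in the exosome fraction. miR-139-5p followed it by 5.69 and 6.02 cycles in cells and by 3.34 and 2.77 in the exosome fraction. The lead of miR-126 was thus between 2.36 and 4.21 cycles smaller in the exosome fraction, for each of the 3 other members and at both oxygen levels.

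**Figure D5:**
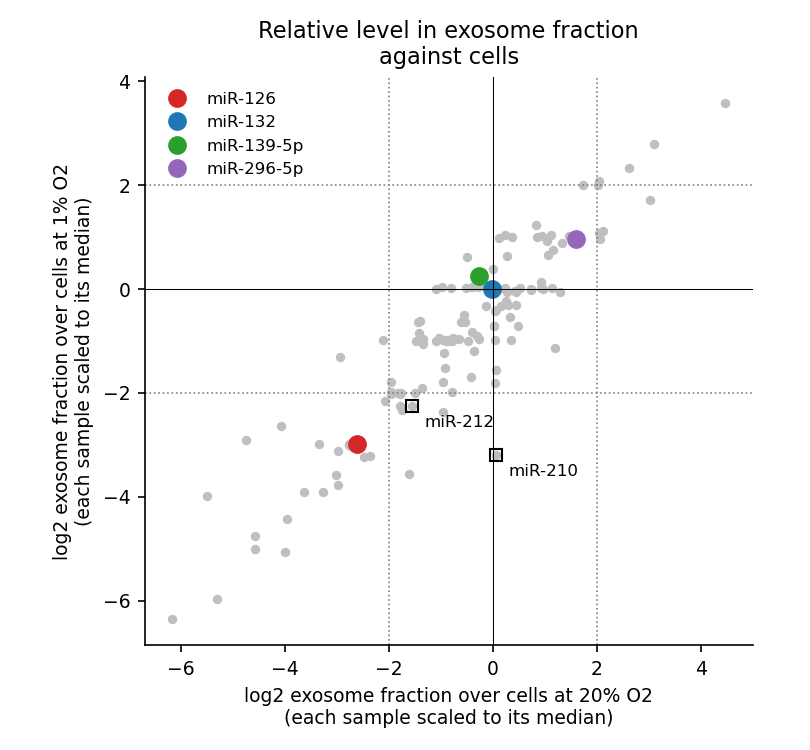
log2 level in the exosome fraction over cells at 20% oxygen (x axis) and at 1% oxygen (y axis), each sample scaled to its median over the 138 assays detected in all samples. Coloured points are the members, squares miR-212 and miR-210, grey points the other assays, and dotted lines mark 4-fold. miR-126 lies at -2.62 and -2.99 and miR-296-5p at 1.60 and 0.97, and with other scalings all points move together.

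miR-212, with the seed of miR-132 and a neighbouring gene, was later than miR-132 in every sample. Its Ct was 33.96 in normoxic and 33.71 in hypoxic cells, and in the exosome fraction it was 28.56 in normoxia and 28.98 in hypoxia. The log2 change of miR-212 with hypoxia, 0.25 in cells and -0.36 in the medium's exosome fraction, was within 2-fold like that of miR-132. miR-212 followed miR-132 by 3.08 and 2.73 cycles in cells and by 4.60 and 4.99 cycles in the exosome fraction. The gap was therefore 1.52 cycles wider in the exosome fraction in normoxia and 2.26 cycles wider in hypoxia, opposite to the narrowing between miR-126 and miR-132. miR-298, the neighbour of miR-296, was at the ceiling in all 4 samples.

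The assays most like each member were found by the root-mean-square difference of Ct over the 4 samples, after subtracting each assay's own mean, among the 137 others detected in all 4. For miR-126 these were miR-483-5p (0.07 cycles), miR-374a (0.08) and let-7g (0.10). For miR-132 they were let-7c (0.02), miR-142-5p (0.05) and miR-484 (0.06), and for miR-139-5p they were miR-142-5p (0.08), miR-16 (0.08) and miR-146b-5p (0.09). For miR-296-5p they were miR-335 (0.10), miR-148a (0.12) and miR-152 (0.17). miR-132 had 12 assays within the SD of the U6 wells, miR-139-5p 7, miR-126 5 and miR-296-5p 2. The measure has only 4 points per assay, and the step between compartments and the whole-cycle values, which all assays share, enter it: let-7c and miR-484 were within 0.1 of a whole cycle in all 4 samples.

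Of 30 other miRNAs with described actions on vessel cells, 29 had an assay on the card under the listed name. In cells 24 were detected in both samples. Of these 1 was past 2-fold higher, 2 were past 2-fold lower and 21 lay within it. Over the whole card 20 of 147 assays (13.6%) were past 2-fold in cells. The median log2 change of the list was 0.04, beside 0.03 over all assays. The listed assays past 2-fold were miR-210 (11.7-fold higher), miR-19a of the miR-17-92 cluster (2.13-fold lower) and miR-221 (2.04-fold lower). miR-221 represses the receptor KIT in endothelium. miR-424, which is induced in hypoxic endothelium, was seen in hypoxic cells alone, at Ct 33.33, as part of the 23 of 170 assays (13.5%) that were seen in 1 cell sample. In the exosome fraction 25 were detected in both samples, 24 of them within 2-fold. Over the whole card 15 of 203 assays (7.39%) were past 2-fold in that fraction. The median of the list was 0.00, beside -0.07 over all assays. The 1 listed assay past 2-fold was miR-130a, which represses the antiangiogenic homeobox genes GAX and HOXA5, at 4.54-fold higher (Ct 31.96 and 29.83). The most abundant by mean Ct were miR-19b, miR-17, miR-20a and miR-24, with log2 changes between -0.34 and 0.08 in cells and between -0.57 and -0.08 in the exosome fraction. The members measured in both samples, with changes between -0.32 and 0.29, lay inside the range of this list in both compartments (-1.09 to 3.55 in cells and -0.57 to 2.18 in the exosome fraction). The ends of these ranges are single assays: miR-19a and miR-210 in cells, miR-19b and miR-130a in the exosome fraction. Lying inside them therefore does not show likeness to the list.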

How the data were processed

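The authors' first deposited table holds the Ct of each of 384 wells per sample, not normalized. Their second deposited table gives the ratio of hypoxia over normoxia, made with Data Assist version 3.1, per the series' design text. For the threshold and baseline settings of the Ct values, the labels' protocols state nothing. The RNA was measured by TaqMan array cards, and the exosome products alone were pre-amplified, per the labels' protocols. A log2 change is the normalized Ct in normoxia minus that in hypoxia. The normalizer of the cells was the mean of 4 U6 wells and that of the exosome samples the spike-in, as the design text names them. Where both wells were detected, the largest deviation from the log2 of the authors' deposited ratio was 0.000356. A miRNA at Ct 35 in 1 of the samples has a bound only. With 1 sample per group nothing was tested.

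The members and lists were chosen with earlier results of these data known. The named miRNAs are the members, controls, miR-210, seed and genomic partners, the 3 assays closest in pattern to each member, and from the vessel list those past 2-fold or seen in 1 sample and the 4 with the lowest mean Ct. miR-520e, miR-215 and miR-493 were named after their values were seen. Alternatives changed the normalizer, the scaling, the Ct limit, the fold threshold and the amplification efficiency. The calculation was tested on simulated data. Python 3.11.15, pandas 2.3.3, numpy 2.4.6 and matplotlib 3.10.9 were used. Depth does not apply to a Ct, and the precision is limited by 1 well per assay.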

Additional observations from a re-analysis of the deposited data

Results flagged for a closer look

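The members detected in all 4 samples had oxygen responses of opposite sign in cells and in the exosome fraction, with 1 sample on each side, and the difference was not tested. The response in the exosome fraction minus that in cells was -0.28 for miR-126, 0.12 for miR-132, 0.61 for miR-139-5p and -0.53 for miR-296-5p on the log2 scale. The signs of miR-126 and miR-132 rest on the normalizer: in cells miR-126 was 0.006 with U6 but -0.14 with RNU44 and RNU48, the sign of its exosome value, and in the exosome fraction miR-132 was 0.023 with the spike-in but -0.030 with no normalizer, the sign of its cell value. Of all 138 assays, 52.2% had opposite signs too.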

How the results depend on the processing

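Of 94 alternative values, 60 moved by less than the SD of the U6 wells in normoxic cells (0.15, for counts less than 1.5 times). The other 34 moved further, and 0 reversed a called value. Changes of sign below the fold threshold were not counted as reversed, as for miR-139-5p, exosome fraction over cells in normoxia (-0.26, but 0.40 with the mean). The loss of the 4-fold call of miR-126 was not counted as reversed either. The members measured in both samples of an oxygen comparison stayed within 2-fold in all 48 values, from -0.47 to 0.49. These 48 values are the reported ones together with the alternatives for normalizer and efficiency. The members' changes in cells moved by less than that SD throughout. With median Ct as normalizer in the exosome fraction the log2 changes were -0.074 for miR-126, 0.22 for miR-132, 0.49 for miR-139-5p and -0.043 for miR-296-5p, and the bounds 7.31 for miR-139-3p and -3.70 for miR-296-3p (6.59 and -3.61 at an efficiency of 1.9 per cycle). With it in both compartments the differences of responses were -0.11, 0.29, 0.78 and -0.36 for miR-126, miR-132, miR-139-5p and miR-296-5p. For exosome fraction over cells, in normoxia and hypoxia, the mean as scaling gave -1.96 and -2.06 (miR-126), 0.64 and 0.94 (miR-132), 0.40 and 1.19 (miR-139-5p), 2.255 and 1.903 (miR-296-5p). The median over assays under Ct 30 gave -1.78 and -1.85, 0.81 and 1.15, 0.58 and 1.39, and 2.43 and 2.11 in that order, and an efficiency of 1.9 gave -2.42 and -2.77 for miR-126. These settings shift all assays of a sample alike or scale all changes, so they could not have reversed the large bounds of the 3p arms. The counts past 2-fold fell from 20 to 5 in cells and from 15 to 2 in the exosome fraction with Ct under 32 in both samples, where fewer assays were counted, and were 41 and 35 at 1.5-fold. In cells the split was 13 higher and 7 lower without 1 of the U6 wells. No paired analysis was possible because each group has 1 sample. The members detected with Ct under 32 were 3, 4, 5 and 5 in the order normoxic cells, hypoxic cells, normoxic and hypoxic exosome fraction.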
